A study of Mus musculus with 6 samples.

Results

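The aminoacyl-tRNA synthetases are the enzymes that join each amino acid to its transfer RNA (tRNA). The 36 synthetase genes described here were taken by symbol from the deposited count table, 20 of them for the cytosolic enzymes and 16, with symbols ending in 2, for the mitochondrial enzymes, out of 46983 genes in the table. All 36 passed the expression filter, as did 13705 genes in all. They were compared between leukemia cells of 2 genotypes, C57BL/6J Alox5-/- and C57BL/6J WT, with 3 libraries each. Leukotrienes are made from arachidonic acid through the product of Alox5, 5-lipoxygenase, and the series' title names the survival of leukemic stem cells and chemoresistance as its subject. All cells of both groups carried an MLL-AF9 retrovirus, which encodes a fusion oncogene of acute myeloid leukemia, introduced into sorted LSK cells (negative for lineage markers, positive for Sca-1 and c-Kit) of donor bone marrow. Transduced GFP+ cells were transplanted into irradiated C57BL/6J mice, and all libraries were untreated. The labels call the libraries biological replicates but give neither the number of transduced pools or mice behind the libraries nor the age of the mice, and p-values therefore reflect the spread between these samples alone.

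Protein synthesis needs every amino acid on its own tRNA, and a cell keeps separate sets of synthetases in the cytosol and in mitochondria, most of them the products of different nuclear genes. Several cytosolic enzymes sit in a multi-synthetase complex held together by the scaffold proteins Aimp1, Aimp2 and Eef1e1, and the rest work outside it. Gars and Kars each give rise to both a cytosolic and a mitochondrial enzyme, and Eprs carries the activities for glutamate and proline in a single chain. When amino acids run short, uncharged tRNA activates the kinase Gcn2 (gene Eif2ak4), which raises translation of the transcription factor ATF4, and ATF4 is known to induce many cytosolic synthetase genes together with amino acid transporters and the asparagine synthetase Asns.

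Promoter sequences are shown first because a motif known to bind ATF4 with C/EBP partners, the C/EBP-ATF response element, was found in the windows of 5 synthetase genes and lies in the promoter of Asns, a much studied ATF4 target. The letters searched were TGATGNAA on both strands, in windows from 250 bases before to 50 bases after each RefSeq start (GRCm38.p6). Each line gives 150 bases of the window, 5' to 3' on the gene's strand, from 120 bases before the start to 30 bases after it, and capitals mark the motif in either orientation.
Aars: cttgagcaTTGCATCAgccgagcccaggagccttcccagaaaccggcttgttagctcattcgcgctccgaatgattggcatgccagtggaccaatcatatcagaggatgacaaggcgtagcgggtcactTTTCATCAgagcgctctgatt
Gars: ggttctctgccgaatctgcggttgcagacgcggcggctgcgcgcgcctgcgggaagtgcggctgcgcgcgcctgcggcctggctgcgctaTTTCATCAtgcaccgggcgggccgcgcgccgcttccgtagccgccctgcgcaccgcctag
Iars: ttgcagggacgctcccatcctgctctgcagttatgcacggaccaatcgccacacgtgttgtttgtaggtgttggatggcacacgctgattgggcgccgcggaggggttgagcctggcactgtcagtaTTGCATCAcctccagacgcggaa
Tars: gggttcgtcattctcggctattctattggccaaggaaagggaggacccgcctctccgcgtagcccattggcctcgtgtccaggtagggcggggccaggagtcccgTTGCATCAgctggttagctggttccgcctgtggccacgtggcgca
Yars: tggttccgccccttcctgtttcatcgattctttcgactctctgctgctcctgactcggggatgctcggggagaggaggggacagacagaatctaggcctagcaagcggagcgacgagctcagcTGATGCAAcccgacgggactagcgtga
Asns: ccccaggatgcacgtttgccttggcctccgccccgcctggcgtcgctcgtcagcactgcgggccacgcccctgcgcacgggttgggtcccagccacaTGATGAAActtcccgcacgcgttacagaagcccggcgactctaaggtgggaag
These lie at chr8:111033722-111033871 (plus strand) for Aars, chr6:55037881-55038030 (plus strand) for Gars, chr13:49682010-49682159 (plus strand) for Iars, chr15:11399629-11399778 (minus strand) for Tars, chr4:129189783-129189932 (plus strand) for Yars and chr6:7693180-7693329 (minus strand) for Asns. Aars, the alanine enzyme, held the motif at 2 places, 112 bases before the start and at base 10 after it. The motif began 30 bases before the start in Gars (glycine) and 15 bases before it in Tars (threonine), and at base 8 in Iars (isoleucine) and base 4 in Yars (tyrosine). RefSeq windows were at hand for 26 of the 36 synthetase genes, the others being Cars, Hars, Lars, Mars, Nars, Rars, Vars, Wars, Hars2 and Pars2. The motif was present in 5 of 12 cytosolic genes with a window, in 0 of 14 mitochondrial genes with a window, and in 3.97% of all 32851 windows. Of the stress response genes named below, windows were looked up only for Asns, Trib3 and Ddit3. Trib3 held 1 match in its window and Ddit3 held 0. A match is a description of letters and not of binding.

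The libraries held 28985597 to 38695948 gene counts, and expression is given in CPM (read counts relative to library size after TMM scaling). The Alox5 transcript was lower but still present in the mutant cells (64.2 ± 1.87 against 105 ± 1.87 CPM; mean ± SD of 3 libraries, as below), and which exons the allele changes is not given here. Of the sorting markers, Kit (c-Kit) was present but called lower (136 ± 2.73 against 159.7 ± 3.09 CPM in WT, log2 change -0.23), and Ly6a, which encodes Sca-1, was low (0.763 ± 0.158 against 1.06 ± 0.169 CPM). Among all 9 myeloid and progenitor markers 3 were called higher (Cd34, Cd33 and Ptprc) and 4 lower (Mpo, Elane, Itgam and Kit), and their summed level was 1698 to 1784 CPM against 1799.9 to 1861 CPM in WT. Mpo, the myeloperoxidase of granulocyte precursors, was 65.6 ± 7.76 against 197 ± 13.4 CPM (log2 change -1.59), and Cd34 was 227 ± 3.39 against 177 ± 3.04 CPM (0.36). The part of these cell state markers in the synthetase values was not tested. Of 7 T, B and NK cell markers 0 passed the filter, and Cd3e and Ncr1 were at 0 in all 6 libraries, which allows up to 0.103 CPM. The summed level of 4 macrophage markers was 31.6 to 34.4 CPM in Alox5-/- and 41.0 to 44.7 CPM in WT, nearly all from Adgre1, and its part in the results below was not tested. Alox5-/- replicate 2 was high in Gm42418, a gene model described with Lars2. In bulk samples, fewer cells of a type and less RNA per cell cannot be told apart.

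Most cytosolic synthetase genes were higher in Alox5-/- cells, each by a small amount. Of 20 genes, 12 rose, 2 fell and 6 did not pass the test (median change 0.22 in log2). Among all tested genes 26.8% rose and 27.0% fell, with a median of 0.00. The cytosolic genes are abundant, at 139 to 929.9 CPM, and among the 2686 tested genes averaging 100 CPM or more, a level chosen after the data were seen, 19.9% rose and 44.8% fell. The rises ran from 1.12-fold (Tars) to 1.52-fold (Sars), and 8 of the 20 genes rose by at least 1.2-fold, against 17.7% of all tested genes and 6.81% of those with at least 100 CPM. The libraries did not overlap in 13 of the 20 genes with Alox5-/- higher and in 4 with Alox5-/- lower, against 29.7% and 30.2% of all tested genes. Summed over the 20 genes, the level was 6897, 7019 and 7034 CPM in Alox5-/- replicates 1 to 3 and 5940.0, 5919.5 and 5843 CPM in WT, 18.3% higher in Alox5-/-. All 3 sums in Alox5-/- lay above all 3 in WT.

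**Figure D1:**
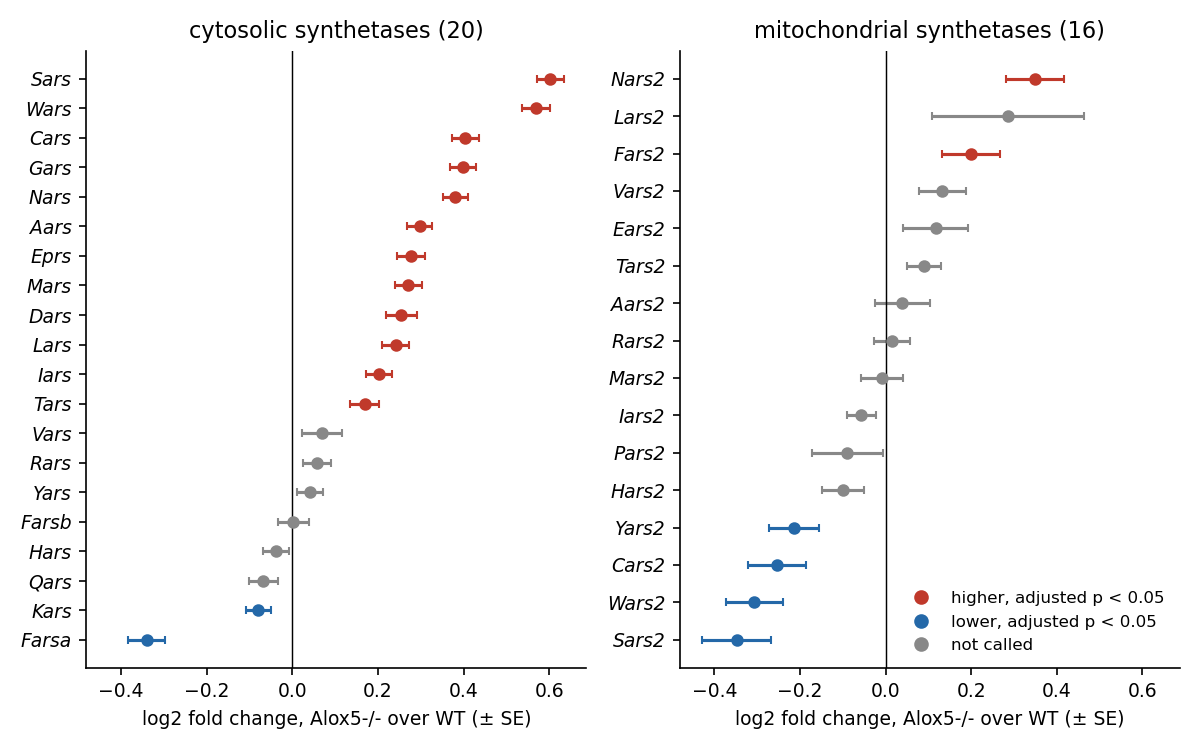
Log2 fold change of each synthetase gene, Alox5-/- over WT, with its standard error (SE), for 20 cytosolic genes (left) and 16 mitochondrial genes (right); red and blue mark genes past the test, grey those not called. Of the cytosolic genes 12 are red and 2 blue, and of the mitochondrial genes 2 are red and 4 blue.

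The largest rises were in the serine and tryptophan enzymes. Sars, the serine enzyme, was 340.2, 350.5 and 357 CPM in Alox5-/- and 234, 229 and 227 CPM in WT. This was a log2 change of 0.60 (SE 0.03; edgeR adjusted p = 9.08e-10), and the groups did not overlap. Its gene spans chromosome 3, 108424865 to 108445209 (mm10, minus strand), and its promoter window held no match to TGATGNAA. Wars, the tryptophan enzyme, also known to be induced by interferon gamma, was 202, 213 and 209 CPM in Alox5-/- and 143, 138 and 139 CPM in WT. This was a log2 change of 0.57 (SE 0.03; edgeR adjusted p = 2.6e-09), again with no overlap, and it lies on chromosome 12 from 108860030 to 108894174.

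Cars, Gars and Nars followed, all about 1.3-fold higher. Cars, the cysteine enzyme on chromosome 7 (143557230 to 143600090), was 185, 181 and 185 CPM against 139.7, 137 and 139.9 CPM (log2 fold change 0.40, SE 0.03). Gars, the glycine enzyme of both compartments on chromosome 6 (55038007 to 55079500), was 803, 806 and 837 CPM against 623, 619.9 and 614 CPM (0.40, SE 0.03). Nars, the asparagine enzyme, was 921, 927 and 942 CPM against 712, 731 and 699 CPM (0.38, SE 0.03). In each of these genes the lowest Alox5-/- library stood well above the highest WT library, and the edgeR adjusted p was 5.23e-08 for Cars, 4.19e-08 for Gars and 7.3e-08 for Nars. Aars, the alanine enzyme on chromosome 8 (111033144 to 111057664), with 2 motif matches above, was 684, 707 and 696 CPM against 568, 567 and 564 CPM (0.30, SE 0.03; edgeR adjusted p = 6.45e-07). Tars, the threonine enzyme, with 1 motif match, rose least of the called genes, from 285, 282 and 269.5 CPM in WT to 304, 318 and 319.6 CPM (0.17, SE 0.03; edgeR adjusted p = 0.000647). In the gene models 14.3% of the exon bases of Aars also belong to Exosc6 on the same strand, so the reads of this stretch cannot be told apart.

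Within the multi-synthetase complex the 8 enzymes did not move as one. Eprs (glutamate and proline, log2 fold change 0.28), Mars (methionine, 0.27), Dars (aspartate, 0.25), Lars (leucine, also a leucine sensor for mTORC1, 0.24) and Iars (isoleucine, 0.20) rose, each with SE 0.03 or 0.04 and no overlap between groups. Eprs, for example, was 596, 635 and 607 CPM in Alox5-/- and 508, 515 and 493 CPM in WT. Qars (glutamine) and Rars (arginine) were not called: Qars was 144 ± 4.87 against 151 ± 1.58 CPM, and Rars was 187 ± 4.20 against 179.7 ± 4.45 CPM (edgeR adjusted p = 0.107 and 0.153). Kars, the lysine enzyme of both compartments, was called lower at 256, 250.4 and 256 CPM against 270.4, 264 and 271 CPM (log2 change -0.08, SE 0.03; edgeR adjusted p = 0.0374), but this call was lost under 10 of 15 alternatives of tool, scaling, filter, block or library left out, over which its log2 fold change was -0.08 to -0.04. Mars shares 68 exon bases, 1.99% of its exon length, with the opposite-strand gene Ddit3, which was 5.93-fold higher in Alox5-/-.

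The scaffold proteins did not follow the enzymes that rose. Aimp2 was 32.0, 30.9 and 31.5 CPM in Alox5-/- and 52.3, 48.1 and 50.5 CPM in WT, and fell by 0.68 on the log2 scale (SE 0.05; edgeR adjusted p = 1.59e-08), with no overlap. In the gene models 29.4% of its exon bases lie opposite Eif2ak1, a kinase of the stress response. Aimp1 (74.0 ± 1.67 against 75.3 ± 4.59 CPM) and Eef1e1 (85.3 ± 5.78 against 85.1 ± 0.903 CPM) were not called and overlapped between groups.

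Outside the complex, the phenylalanine enzyme went the other way in 1 of its subunits. Farsa, the catalytic alpha subunit, was 145, 134 and 139 CPM in Alox5-/- and 176, 166 and 186 CPM in WT, and fell by 0.34 on the log2 scale (SE 0.04; edgeR adjusted p = 1.02e-05). The highest Alox5-/- library lay below the lowest WT library. Farsb, the beta subunit of the same enzyme, was 149, 145 and 158 CPM against 150.3, 153 and 148 CPM, a log2 change of 0.00 (SE 0.04; edgeR adjusted p = 0.955). Whether the subunits differ from each other in response was not tested. Hars (histidine, 147 ± 2.72 against 151 ± 0.642 CPM), Vars (valine, 354 ± 24.1 against 338 ± 18.7 CPM) and Yars (tyrosine) were not called. Yars was 199.9, 197 and 198 CPM in Alox5-/- and 192, 192 and 194 CPM in WT, so that the groups did not overlap. The change was only 1.03-fold (edgeR adjusted p = 0.258), and the Yars window held the motif. Among the 15 alternatives Yars was called higher only with scaling by library totals alone (log2 fold change 0.08).

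**Figure D2:**
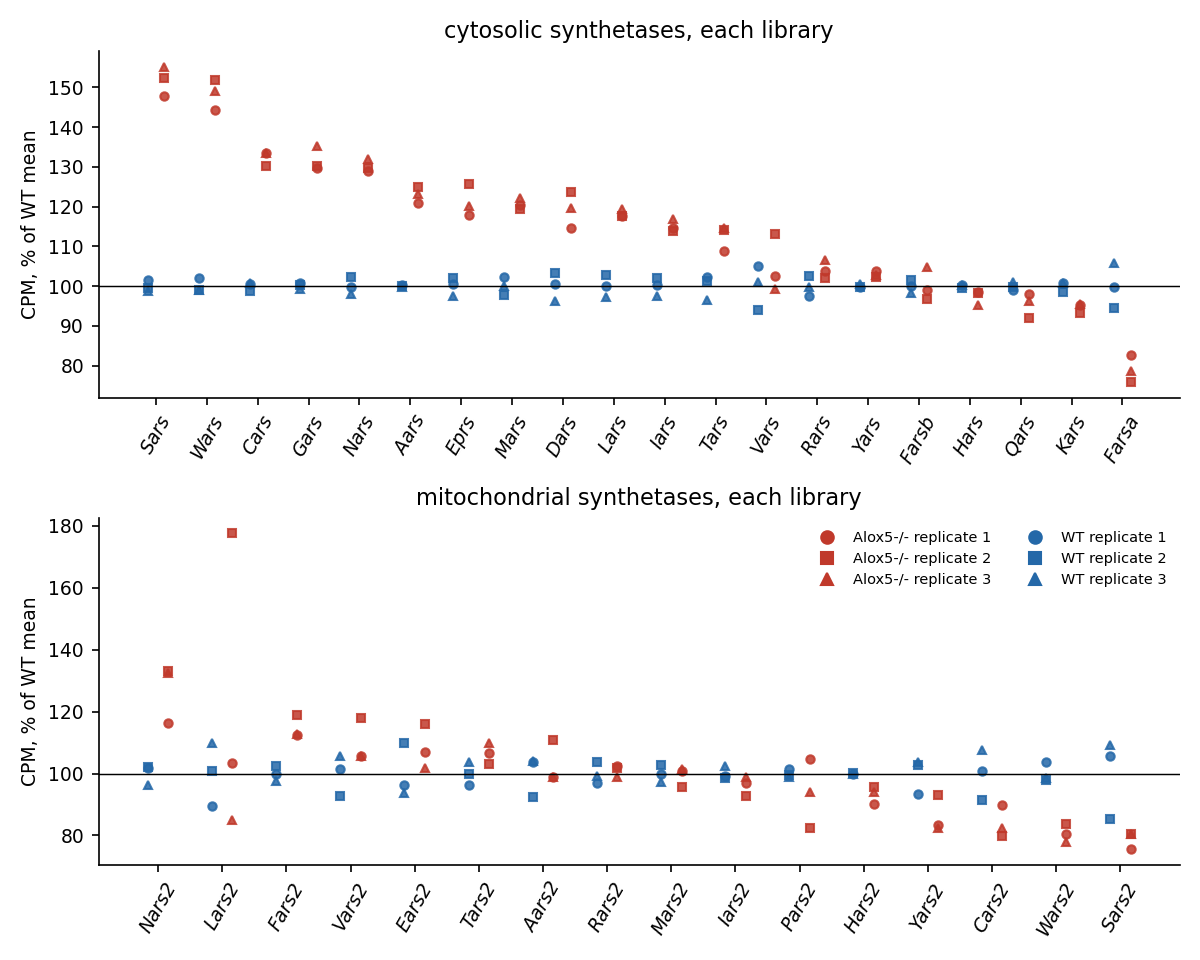
CPM of each gene in each library as a percentage of the mean of the 3 WT libraries, ordered by fold change, for cytosolic (top) and mitochondrial (bottom) synthetases; red points are Alox5-/-, blue WT, and the symbol gives the replicate. All 3 Alox5-/- points of Sars and Wars lie between 144% and 155%, and Lars2 in Alox5-/- replicate 2 reaches 178%.

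Grouped by what is known of them, 12 cytosolic genes are commonly described as ATF4 targets: Aars, Cars, Eprs, Gars, Iars, Lars, Mars, Nars, Sars, Tars, Wars and Yars. Of these 11 rose and Yars was not called (median change 0.29 in log2), against 26.8% higher and 27.0% lower among all tested genes. Of the other 8 (Dars, Farsa, Farsb, Hars, Kars, Qars, Rars and Vars), Dars rose, 2 fell and 5 were not called, with a median of -0.02. This grouping comes from general knowledge and was written with other results of these data known, so it is a description. By enzyme class, which follows the fold of the catalytic domain, 6 of 10 class I cytosolic genes were higher and 0 lower. Of 10 class II cytosolic genes 6 were higher and 2 lower. Eprs was counted in class I only, although its glutamate and proline activities belong to different classes. Among mitochondrial genes 0 of 9 of class I were higher and 3 lower, and 2 of 7 of class II were higher and 1 lower; no difference between classes was tested. Motif matches were found in 4 of 7 genes that rose and had a window (Aars, Gars, Iars and Tars) and in 1 of 5 that did not rise (Yars). Dars, Eprs and Sars rose without a match in this window.

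The mitochondrial set did not share the rise. Of 16 genes 2 rose, 4 fell and 10 were not called (median change 0.00 in log2), compared with 30.4% higher and 28.6% lower among the 6541 tested genes with a mean from 10 to 100 CPM. Leaving out Lars2, treated below, the summed level was 575, 578 and 579 CPM in Alox5-/- and 580.1, 577 and 598 CPM in WT, a difference of -1.27% with overlapping groups. Most of these genes are low, and their median coefficient of variation within a group was 3.56% without Lars2, against 2.22% for the cytosolic genes.

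Nars2 and Fars2 rose. Nars2, the mitochondrial asparagine enzyme on chromosome 7 (96951505 to 97064758), was 18.1, 20.8 and 20.7 CPM in Alox5-/- and 15.9, 15.9 and 15.0 CPM in WT (log2 change 0.35, SE 0.07; edgeR adjusted p = 0.000445). Fars2, the phenylalanine enzyme, was 11.4, 12.0 and 11.4 CPM against 10.1, 10.4 and 9.88 CPM (0.20, SE 0.07; edgeR adjusted p = 0.0232). The groups did not overlap in either gene. The Fars2 call was lost with DESeq2 and when Alox5-/- replicate 2, WT replicate 1 or WT replicate 3 was left out, where its log2 fold change lay from 0.18 to 0.20 over these 4 alternatives.

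Sars2, Wars2, Cars2 and Yars2 fell. Sars2, the mitochondrial serine enzyme on chromosome 7 (28741992 to 28753871), was 18.3, 19.4 and 19.4 CPM in Alox5-/- and 25.5, 20.6 and 26.3 CPM in WT (log2 change -0.35, SE 0.08; edgeR adjusted p = 0.00183). WT replicate 2 stood near the Alox5-/- libraries. Wars2, the tryptophan enzyme, was 11.0, 11.4 and 10.6 CPM against 14.1, 13.3 and 13.4 CPM (-0.31, SE 0.07; edgeR adjusted p = 0.00124). Cars2, the cysteine enzyme, was 21.0 ± 1.32 against 25.1 ± 2.04 CPM (-0.25), and Yars2, the tyrosine enzyme, 33.5 ± 2.30 against 38.8 ± 2.25 CPM (-0.21). The libraries of the 2 genotypes did not overlap in any of these 4 genes, and all 4 were called under each of the 15 alternatives of tool, scaling, filter, block or library left out. Over all 16 mitochondrial genes, the libraries did not overlap in 5 with Alox5-/- lower and in 2 with Alox5-/- higher. Among all tested genes these shares were 30.2% and 29.7%.

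Of the 10 uncalled mitochondrial genes, 9 had log2 fold changes between -0.10 (Hars2, histidine) and 0.13 (Vars2, valine). Rars2 (arginine), Mars2 (methionine) and Aars2 (alanine) lay at 0.02, -0.01 and 0.04. Iars2 (isoleucine, -0.06), Pars2 (proline, -0.09), Tars2 (threonine, 0.09) and Ears2 (glutamate, 0.12) lay between them. Vars2 and Tars2 were near the threshold (edgeR adjusted p = 0.0562 and 0.0632) and passed it under 9 and 6 of the 15 alternatives. In the gene models 22.9% of the exon bases of Iars2 are shared with Rab3gap2 and 8.52% of those of Vars2 with the antisense gene Gm20483, both on the opposite strand, and Hars and Hars2 share 195 exon bases on opposite strands; whether counting used strand is not known here.

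Lars2, the mitochondrial leucine enzyme, stood apart in its spread. It was 287, 492 and 236 CPM in Alox5-/- and 248, 279 and 305 CPM in WT, a coefficient of variation of 40.1% in Alox5-/-, where no other synthetase gene exceeded 12.8% in either group. Its log2 fold change of 0.29 had an SE of 0.18 (edgeR adjusted p = 0.191). The high value came from Alox5-/- replicate 2 alone. Gm42418, a gene model with 99.5% of its exon bases opposite an annotated ribosomal RNA gene and picked here because its values resemble those of Lars2, was 2761, 7064 and 2046 CPM in Alox5-/- and 2642, 2697 and 3134 CPM in WT, also highest in Alox5-/- replicate 2. The mitochondrial ribosomal RNA mt-Rnr2, also picked after its values were seen, was 314, 422 and 313 CPM against 366, 319 and 298 CPM. For the other mitochondrial ribosomal RNA, mt-Rnr1, the values were 259, 318 and 252 CPM against 309.9, 271 and 276 CPM, so that Alox5-/- replicate 2 was only slightly above the highest WT library. The part of ribosomal RNA reads in the Lars2 value was not tested. Lars2 passed the test without Alox5-/- replicate 3 (log2 fold change 0.49) and with no expression filter (0.29). All 12 cytosolic genes that rose were also called without Alox5-/- replicate 2.

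**Figure D3:**
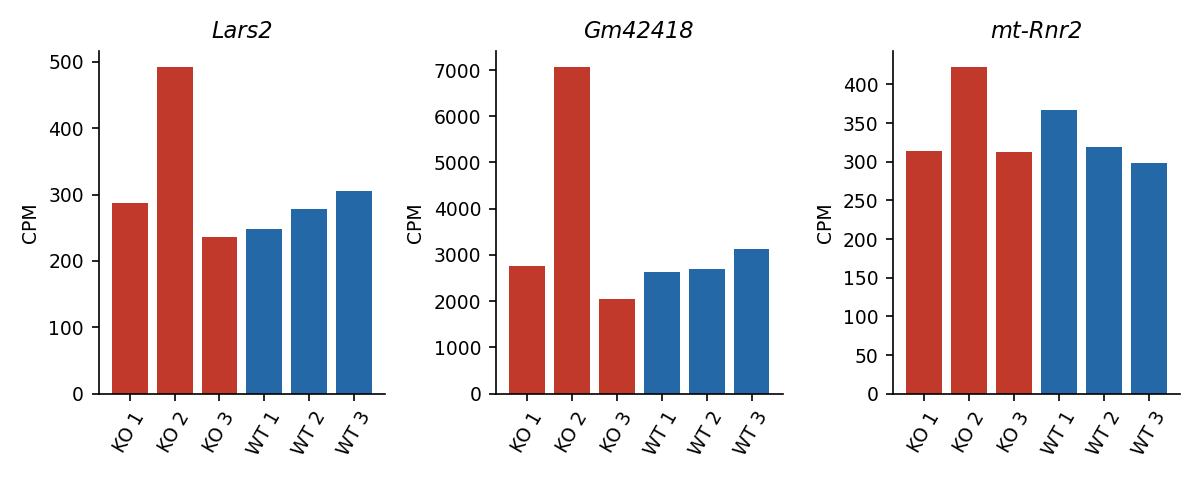
CPM of Lars2, Gm42418 and mt-Rnr2 in each library, with bars from 0; KO is Alox5-/- (red) and WT is blue, and the number is the replicate. Lars2 at 492 CPM and Gm42418 at 7064 CPM are both highest in KO 2.

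For 13 amino acids a separate gene encodes the cytosolic and the mitochondrial enzyme under matching symbols. The cytosolic log2 fold change was above the mitochondrial one in 11 of the 13 pairs, the exceptions being leucine and valine. Of the 9 amino acids whose cytosolic gene rose, the mitochondrial gene rose in 1 (asparagine: Nars 0.38 and Nars2 0.35), fell in 3 and was not called in 5. Among all tested genes 26.8% were higher and 27.0% lower, so 3 falls among 9 genes are near the general share. The 3 opposite pairs were serine (Sars 0.60, Sars2 -0.35), tryptophan (Wars 0.57, Wars2 -0.31) and cysteine (Cars 0.40, Cars2 -0.25). These are values side by side, and the difference within a pair was not tested.

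**Figure D4:**
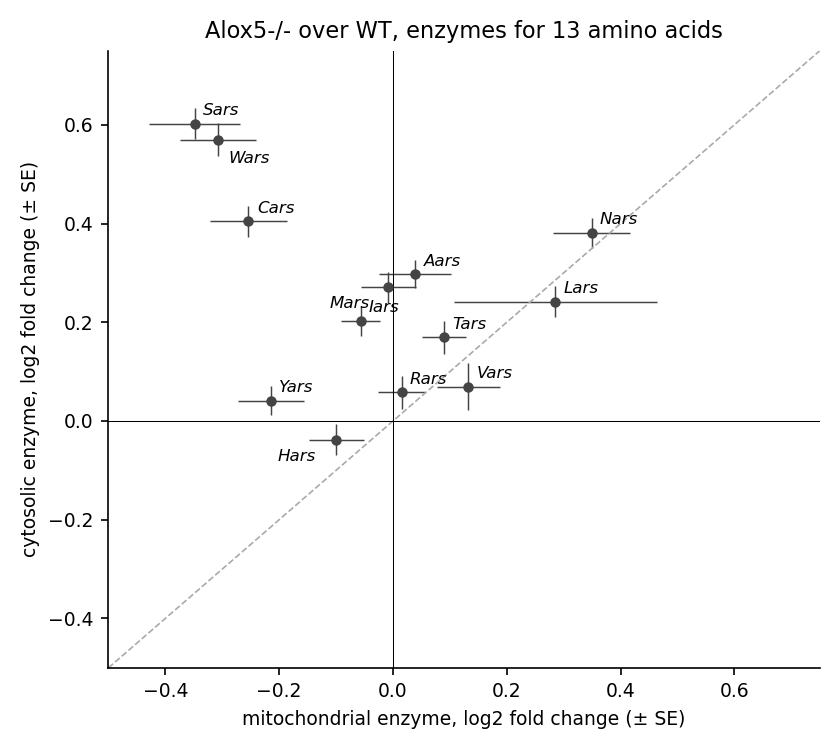
Log2 fold change, Alox5-/- over WT, of the cytosolic enzyme (vertical axis) against the mitochondrial enzyme (horizontal axis) for 13 amino acids, labelled by the cytosolic gene, with bars of 1 SE and a dashed line of equal change. Points of 11 amino acids lie above the line, with Sars, Wars and Cars at the upper left.

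Levels were compared between genes as CPM per kb of exon, using the union of annotated exons. In WT, Gars (198 CPM per kb) and Nars (164 CPM per kb) were far above the rest, and Dars came next at 65.4 CPM per kb. Hars, Aars, Iars, Vars, Kars and Lars lay between 61.8 and 58.2 CPM per kb in WT. From Iars down to Mars (Iars, Vars, Kars, Lars, Farsb, Rars, Mars) the WT libraries of neighbours in this order overlapped, so that their order is not separated by the spread. Qars (23.0) and Cars (21.1 CPM per kb) were the lowest of the cytosolic genes. All mitochondrial genes but Lars2 (15 of 16) lay below every cytosolic gene, from 18.3 CPM per kb in Rars2 to 1.76 CPM per kb in Fars2. That count and the place of Dars were the same with the length of the principal transcript, but much of the order in between moved: Eprs went from place 18 to 5, Hars from 4 to 11, and Wars (49.4 CPM per kb) then lay below Qars (53.9 CPM per kb), with Cars still the lowest cytosolic gene. By that length Nars and Gars were level at 260.1 and 260.0 CPM per kb. Within the 13 pairs the cytosolic level was 2.33 (leucine) to 73.2 times (asparagine) the mitochondrial level in WT, with a median of 6.14. With principal transcript lengths these ratios ran from 1.10 (leucine) to 63.0 (asparagine), with a median of 4.99, and the cysteine ratio was 3.27 in place of 6.10. With exon union lengths, in Alox5-/- Sars moved from place 14 to place 7 and Wars from 15 to 10 among the 36 genes.

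**Figure D5:**
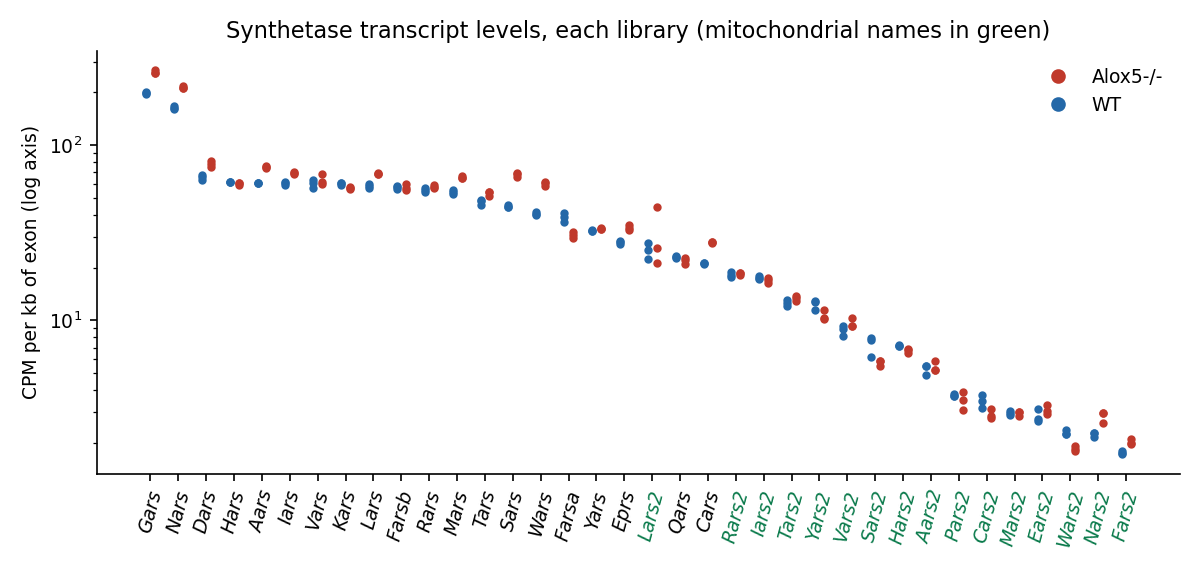
CPM per kb of exon (log axis) of the 36 synthetase genes in each library, ordered by the WT mean, with Alox5-/- in red and WT in blue and mitochondrial gene names in green. Gars and Nars lead in both groups, and 15 of the 16 mitochondrial genes lie to the right of all cytosolic genes.

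Other genes of mitochondrial charging changed little. Gatc, a subunit of the amidotransferase that forms glutaminyl-tRNA in mitochondria, rose (28.8 ± 0.594 against 25.5 ± 2.17 CPM, log2 fold change 0.17; edgeR adjusted p = 0.0267), and Mtfmt, which formylates the initiator methionyl-tRNA, fell (29.4 ± 0.973 against 32.9 ± 0.317 CPM, -0.17; edgeR adjusted p = 0.00927). The Gatc call was lost without Alox5-/- replicate 1 or 3. The other amidotransferase subunits, Gatb (-0.04) and Qrsl1 (-0.12), were not called. Of the synthetase-like genes, Tarsl2, a second cytosolic threonine enzyme, rose from 36.8, 36.5 and 35.0 CPM in WT to 43.0, 42.5 and 43.3 CPM in Alox5-/- (0.25; edgeR adjusted p = 0.000189). Prorsd1 was called lower (-0.16; edgeR adjusted p = 0.0372) but not with DESeq2 or with any library but WT replicate 3 left out. Aarsd1 (-0.11) and the deacylases Dtd1 (0.09) and Dtd2 (0.06), which remove D-amino acids from tRNA, were not called.

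Genes that make and process tRNA did not rise with the cytosolic synthetases. Of 20 genes of RNA polymerase III transcription 10 fell, 3 rose and 7 were not called (median -0.10), and of 23 tRNA maturation genes 10 fell, 1 rose and 12 were not called (median -0.12), against 27.0% lower and 26.8% higher among all tested genes. Maf1, the repressor of RNA polymerase III, rose from 53.6, 48.3 and 53.0 CPM in WT to 64.7, 66.5 and 63.0 CPM (log2 fold change 0.33; edgeR adjusted p = 2.24e-05). The alternative polymerase subunits moved apart, Polr3gl rising by 0.46 and Polr3g falling by 0.32 on the log2 scale, and Polr3d, Gtf3c5 and Gtf3c6 fell by 0.35, 0.29 and 0.28. Among maturation genes Thg1l, which adds a guanine to histidine tRNA, fell by 0.63 on the log2 scale, Pop1, a subunit of RNase P, by 0.48, the kinase Clp1 by 0.38, the 3' end nuclease Elac2 by 0.27 and Ssb, the La protein that binds new polymerase III transcripts, by 0.26. Of the exon bases of Ssb, 20.0% lie opposite Gm13625. Elac1, another 3' end nuclease, rose (29.8 ± 0.138 against 22.1 ± 0.270 CPM, 0.43). The tRNA exporter Xpot, described elsewhere as an ATF4 target, was 305, 308 and 306 CPM in Alox5-/- against a WT mean of 259 CPM, without overlap, and rose by 0.24 (edgeR adjusted p = 1.32e-05), while Xpo5, an exporter mainly of microRNA precursors, fell by 0.19.

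Translation elongation and recycling factors, among them those that carry charged tRNA to the ribosome, moved both ways. Of 9 genes 2 were higher, 4 lower and 3 not called (median -0.02), against 26.8% higher and 27.0% lower among all tested genes. Eef1a1, which delivers aminoacyl-tRNA in the cytosol, was 6426 ± 221 against 5990.0 ± 73.2 CPM (log2 fold change 0.10), and Gfm2, a mitochondrial recycling factor, rose by 0.12. Eef1d and Eef1g, subunits of the exchange factor for Eef1a1, fell by 0.33 and 0.13, and the mitochondrial factors Tufm and Gfm1 fell by 0.33 and 0.29.

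Many listed genes of the integrated stress response were also higher in Alox5-/- cells. Of 33 tested regulators and ATF4 targets 24 rose, 6 fell and 3 were not called (median change 0.55 in log2), against 26.8% higher and 27.0% lower among all tested genes. The list was written with Ddit3, Stc2 and other values known. Ddit3 (2.57), Trib3 (1.88), Nupr1 (1.84), Slc6a9 (1.49), Gpt2 (1.25) and Asns (0.61) rose, Stc2 fell by 3.38, Atf4 itself was only 1.10-fold higher (1012, 1039 and 1029 CPM against 964, 917 and 929 CPM), and Eif2ak4, the kinase Gcn2, was 62.8 ± 2.44 against 62.2 ± 2.19 CPM (edgeR adjusted p = 0.8). In the gene models 27.8% of the exon bases of Slc6a9 lie opposite Ccdc24 and 9.94% opposite Gm17114.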

How the data were processed

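Poly-A RNA of sorted cells was made into libraries with the SMARTer amplification kit, per the labels' protocols. The authors deposited raw read counts per gene, made with HTSeq (build mm10) per the submitters' processing notes. DESeq2 is named there too. No source used here gives the aligner, its version, the annotation or the strand setting. The 5 summary rows that name no gene were left out: they held 24.4 to 24.8% of reads as not uniquely aligned, so reads of near-identical copies went uncounted, 0.523 to 0.547% as ambiguous, 9.10 to 10.2% outside genes and 4.57 to 5.78% as not aligned.

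From these counts, differential expression was computed over all genes with edgeR 4.0.16 in R 4.3.3 (TMM scaling, default expression filter, quasi-likelihood F-test, no covariate), with Benjamini-Hochberg adjustment over 13705 genes and a threshold of 0.05. An SE is the log2 fold change divided by the root of its F statistic. Alternatives were DESeq2 1.42.0, limma-voom (limma 3.58.1), other scalings and filters, a robust fit, a replicate block, a 1.2-fold minimum and each library left out. Gene positions and exon lengths came from GENCODE vM21 (the mm10 build), and a match was found for all 36 genes. The test was checked on simulated counts. A count of 0 allows up to 3 counts, 0.0786 to 0.103 CPM, for counting error only. The members and lists were chosen with earlier results of these data known. The named genes are all 36 members, all genes of lists of up to 5, and from longer lists up to 6 called genes by smallest p, with Atf4, Ddit3, Trib3, Asns and Eif2ak4. A gene of these lists is left out of the text.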

Additional observations from a re-analysis of the deposited data

Results flagged for a closer look

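Reads outside annotated genes, which enter no comparison, made up a share that was above the level of the control libraries. It was 9.76 ± 0.389% in Alox5-/- (9.44 to 10.2%) and 9.24 ± 0.134% in WT (9.10 to 9.37%; SD, n = 3 each), and its bearing on the synthetase values was not tested. Groups of 3 are too small to test for an outlying library.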

How the results depend on the processing

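Of the calls among the 36 synthetase genes, the 12 cytosolic rises, the falls of Farsa, Sars2, Wars2, Cars2 and Yars2 and the rise of Nars2 kept their direction and their call under all 15 alternatives other than a 1.2-fold minimum, and no result reversed. Kars and Fars2 did not keep their calls, so that 1 cytosolic gene was lower with upper-quartile scaling, library totals alone, no filter, a mean of at least 5 CPM, the replicate block or a 1.2-fold minimum, and 1 to 2 with a library left out. Mitochondrial genes called higher numbered 1 with DESeq2, 4 with upper-quartile scaling, 4 with library totals, 5 with no filter, 4 at a mean of at least 5 CPM, 1 at 1.2-fold and 1 to 4 with a library left out, with Vars2, Tars2, Ears2 or Lars2 passing under some of these settings. Cytosolic genes called higher numbered 13 with upper-quartile scaling and 14 with library totals. Rars passed under both of these settings, and Yars with library totals. With library totals the cytosolic median was 0.27. A 1.2-fold minimum left 2424 genes higher and 1786 lower of all tested. It left 2 mitochondrial synthetases, 6 tRNA maturation, 4 polymerase III and 2 stress response genes lower. With it 0 elongation and recycling factors, tRNA exporters, charging partners or synthetase-like genes were higher. Of the latter 3 lists 0 genes were lower. Charging partners called higher were 2 with upper-quartile scaling, library totals or a mean of at least 5 CPM and 0 to 1 with a library left out, and those lower 1 to 2. Synthetase-like genes called lower were 0 with DESeq2, upper-quartile scaling, library totals, no filter or a mean of at least 5 CPM and 0 to 1 with a library left out. Elongation and recycling factors called higher were 1 to 2 with a library left out. Stress response genes called lower were 3 with library totals or a mean of at least 5 CPM. The cause of these changes was not tested.

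The labels do not say whether the replicate numbers mark a shared batch. Deviations from the group means correlated at -0.06, -0.16 and -0.04 between same-numbered libraries. Between differently numbered libraries of the 2 groups they correlated at -0.10 to 0.13. Deviations centred on groups of 3 cannot decide whether libraries were paired. With the replicate number as a block, 3510 genes were higher and 3519 lower, among them 12 and 1 cytosolic and 2 and 4 mitochondrial synthetases. The lowest synthetase gene averaged 10.1 CPM in WT, and the SE was 0.07 for Fars2 but 0.18 for Lars2, which averaged 277 CPM. The lengths of the principal transcripts and the sums without Lars2 were added after the data were seen.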
